A study of Mus musculus with 2 samples.

Results

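The genes described here are the nuclear-encoded members of the respiratory chain and ATP synthase in mouse CFU-E cells, progenitors committed to red cells and named after the erythroid colonies they form. They were chosen by symbol as every protein-coding gene whose GENCODE M21 name begins with Nduf, Uqcr or Atp5, is Sdha to Sdhd, or begins with Cox and a digit from 4 to 8, together with Atpif1. The rule found 94 genes among 43346 Ensembl gene rows, of which 83 encode subunits and 11 encode assembly factors, an inhibitor or other proteins. A further 11 rows matched the names and were pseudogenes, and were left out. By complex there were 44 members in complex I, 4 in complex II, 8 in complex III, 20 in complex IV and 18 in complex V. The cells were primary erythroid progenitors of male C57BL/6J mice aged 5 to 6 weeks, with no treatment or altered allele named. Total RNA depleted of ribosomal RNA was made into ScriptSeq libraries from 100 ng for each of 2 biological replicates of 1 group, so there was no contrast between conditions and no p-value. Per the labels the libraries come from separate biosamples that share a donor identifier, so technical spread may make up part of the difference between them. Health state is labelled as unknown.

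Replicate 1 held 62576357 expected counts in Ensembl rows and replicate 2 held 36889517. Nuclear protein-coding genes held 28925847 and 17195307 of them. They made up 12.4% and 7.49% of all TPM (transcript abundance per length, scaled to the same total in every library), so a gene at a constant share of nuclear messenger RNA has a higher deposited TPM in replicate 1. The log2 ratio of deposited TPM, replicate 1 over replicate 2, had a median of 0.66 over 9381 nuclear protein-coding genes. Levels below are deposited TPM, and differences between replicates are log2 ratios of counts scaled by TMM, under which the median over all nuclear protein-coding genes was 0.03. In both libraries all 7 erythroid marker genes reached 10 TPM, with a summed level of 1590 TPM in replicate 1 and 980 in replicate 2. Markers of other bone marrow cells were present too. In both libraries all 7 granulocyte markers reached 10 TPM, summing to 1190 and 599 TPM, and all 5 macrophage markers passed 1 TPM, summing to 128 and 78.4. Of 4 B cell markers 3 passed 1 TPM in both libraries, and 2 of 4 megakaryocyte markers did. The part of those cells in the levels below was not tested, and in bulk RNA fewer cells of a type and less RNA per cell cannot be told apart.

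The respiratory chain passes electrons from NADH (through complex I, the NADH dehydrogenase) or from succinate (through complex II, succinate dehydrogenase) to ubiquinone, then through complex III (the cytochrome bc1 complex) and cytochrome c to complex IV (cytochrome c oxidase), which reduces oxygen. Complexes I, III and IV pump protons, and complex V (ATP synthase) uses the gradient to make ATP. Most subunits are encoded in the nucleus and imported, while a small core of every complex but complex II is encoded by mitochondrial DNA. Erythroid progenitors depend on mitochondria for heme and iron-sulfur cluster synthesis, and red cells lose them at the end of maturation.

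Most members were expressed. Detection is counted as at least 1 TPM in each library, and 73 of 94 members were detected (77.7%), against 23.9% of 21461 nuclear protein-coding genes and 41.9% of those with any count. In both libraries 17 members (18.1%) reached 10 TPM, against 4.79% of nuclear protein-coding genes. The median over members was 5.55 TPM in replicate 1 and 4.27 in replicate 2, with a median of library means of 5.10, while nuclear protein-coding genes with a count had a median of 0.95. Members together made up 1.15% and 1.19% of nuclear protein-coding TPM, but 0.397% and 0.433% of nuclear protein-coding counts. Their messages were short, with a median length of 724 bases against 2342 for nuclear protein-coding genes with a count. With the ATPase inhibitor Atpif1 left out, the TPM shares were 0.775% and 0.744%. Mitochondrial ribosomal proteins, another large nuclear-encoded set, had a median of 1.65 TPM with 40 of 77 detected. Genes whose symbols begin like those of cytoplasmic ribosomal proteins (Rpl, Rps or Rplp and a digit, or Rpsa) had 32.4 TPM with 87 of 102. That set was chosen by the start of the symbol only, so it can include genes that are not ribosomal proteins.

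**Figure D1:**
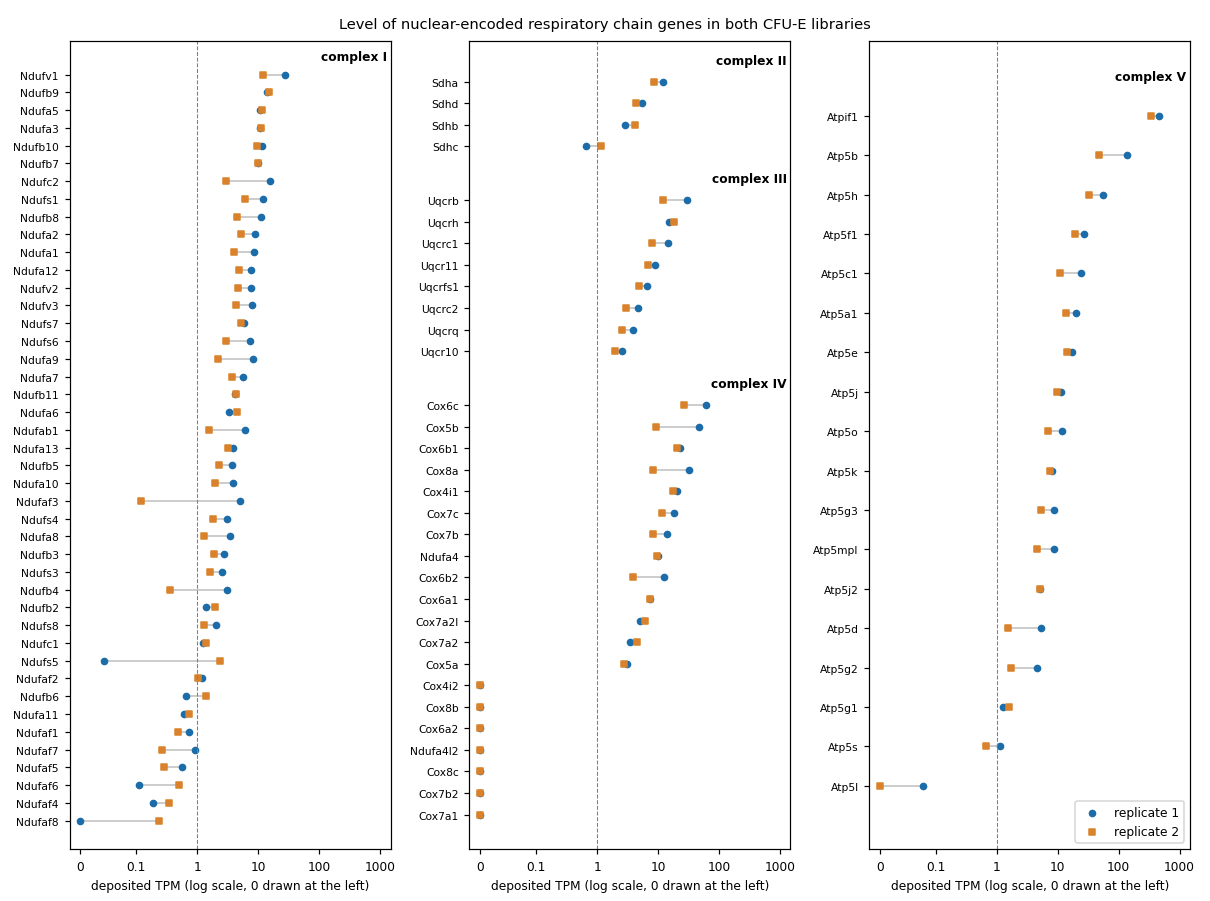
Deposited TPM of the members on a log axis, with circles for replicate 1, squares for replicate 2 and a grey line joining them. Members are sorted by mean level within their complex, the dashed line marks 1 TPM and values of 0 are drawn at the left edge. Atpif1 lies to the right of every other member in both libraries, and 7 complex IV genes lie at 0.

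Complex I was the largest and among the lower-expressed complexes. Its 36 subunits had a median level of 4.95 TPM, with 32 detected. The 7 core subunits, which carry the flavin and iron-sulfur clusters, were all detected by gene TPM. On coding transcripts alone Ndufs7 stood at 0 and Ndufs3 at 0.86 TPM in replicate 1. They ranged from Ndufs8 at 2.05 and 1.27 TPM to Ndufv1, the flavoprotein that accepts electrons from NADH, at 27.4 and 11.9 TPM. Ndufv1 had the highest mean of the complex, 19.6 ± 10.98 TPM (SD, n = 2). The 29 accessory subunits, which surround the core, had a median of 4.24 TPM. Ndufb9 had the highest mean of them, at 14.3 and 15 TPM, which was above Ndufv1 in replicate 2 and below Ndufc2, at 15.5 TPM, in replicate 1. Ndufa5 followed at 10.8 and 11.8 TPM, and Ndufa3 at 10.7 and 11.01. Most TPM of Ndufa5 in both libraries, and all TPM of Ndufa3 in replicate 1, lay on transcripts that are not protein-coding. Ndufb9, Ndufa5 and Ndufa3 were close between libraries in deposited TPM. On TMM-scaled counts their log2 ratios were -0.79, -0.72 and -0.75, while Ndufv1 was level at -0.09.

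The complex I assembly factors, which help build the enzyme and are not part of it, were much lower than its subunits. Of 8 Ndufaf genes, 1 was detected, and their median was 0.50 TPM. That gene was Ndufaf2, at 1.19 and 1.04 TPM. Ndufaf3 had the highest mean, but its level was 5.01 TPM in replicate 1 (346 counts) and 0.12 in replicate 2 (20 counts), and the deposited credibility intervals, 4.42 to 5.64 and 0.094 to 0.306 TPM, did not overlap. The lowest were Ndufaf4, at 0.19 and 0.34 TPM, and Ndufaf8, listed at 0 counts in replicate 1 and 16 counts (0.24 TPM) in replicate 2. A count of 0 allows up to 0.058 TPM for Ndufaf8 in replicate 1, by 3 counts, which covers counting error only. The deposited credibility interval of Ndufaf8 there reached 0.164 TPM. Ndufaf1 stood at 0.73 and 0.48 TPM, Ndufaf5 at 0.56 and 0.28, Ndufaf6 at 0.11 and 0.50, and Ndufaf7 at 0.91 and 0.26.

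Complex II, which links the citric acid cycle to the chain, has 4 subunits that differed widely. Sdha, the flavoprotein that oxidises succinate, stood at 12.3 and 8.51 TPM. Sdhd, a membrane anchor, stood at 5.45 and 4.41 TPM. Sdhb, the iron-sulfur subunit, stood at 2.87 and 4.16 TPM, and Sdhc, the other membrane anchor, at 0.65 and 1.15. The order Sdha, Sdhd, Sdhb, Sdhc by gene TPM was the same in both libraries. On coding transcripts alone Sdhb was below Sdhc in replicate 1, at 0.26 against 0.64 TPM. It was above Sdhc in replicate 2, at 2.88 against 1.15. In replicate 2 Sdhd and Sdhb lay closer to each other than Sdhb lay to its own level in replicate 1, so these neighbours in the order do not differ beyond their spread.

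All 8 complex III members were detected, with a median of 6.84 TPM. The highest was Uqcrb, a small subunit next to the ubiquinone site, at 30.0 and 12.2 TPM. Uqcrh, the hinge protein that contacts cytochrome c1, stood at 15.1 and 18.6 TPM, and was above Uqcrb in replicate 2 only. Uqcrc1, a core-like protein facing the matrix, stood at 14.4 and 7.85 TPM, and Uqcr11 at 9.07 and 6.84. The Rieske iron-sulfur protein Uqcrfs1 stood at 6.49 and 4.95 TPM. The lowest members were Uqcr10, at 2.56 and 1.96 TPM, and Uqcrq, at 3.92 and 2.58. For Uqcrq the noncoding transcript Uqcrq-204 held 90.3% and 96.55% of TPM. That left 0.38 and 0.09 TPM on coding transcripts, so Uqcrq would not count as detected on those alone.

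Complex IV split into expressed members and silent ones. Of its 20 members, 13 were detected and the other 7 had 0 counts in both. Cox6c was the highest, at 61.7 and 27.1 TPM. Cox5b followed at 47.2 and 9.16 TPM, Cox6b1 at 22.9 and 20.3, and Cox8a at 32.6 and 8.43. On TMM-scaled counts Cox6b1 was lower in replicate 1, with a log2 ratio of -0.60, while Cox5b (1.73) and Cox8a (1.20) were higher there. The lowest expressed members were Cox7a2, at 3.45 and 4.49 TPM, and Cox5a, at 3.09 and 2.79. Cox7a2l, a factor for the assembly of supercomplexes rather than a subunit, stood at 5.01 and 6.09 TPM.

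The 7 genes at 0 were paralogs of expressed subunits. They were Cox4i2, a lung and hypoxia form, Cox6a2, Cox7a1 and Cox8b, forms known from heart and skeletal muscle, Cox7b2 and Cox8c, and Ndufa4l2, a hypoxia-inducible relative of Ndufa4. Of 5 marker genes of heart and skeletal muscle, 4 were also at 0 in both libraries. A count of 0 allowed at most 0.128 TPM in replicate 1 and 0.109 in replicate 2 for any of the 7 genes, reached by Cox8b, whose message is short. Against that floor of 3 counts per library, the level of Cox4i1 was at least 576.7-fold that of Cox4i2 in replicate 1 and at least 484.9-fold in replicate 2. The deposited credibility interval of Cox4i2 reached 0.057 and 0.058 TPM, above its floor of 0.036 in both libraries. By that measure the fold limits for this pair are lower. Ndufa4, at 9.87 and 9.53 TPM, was at least 396.3-fold and 373-fold above Ndufa4l2. Cox6a1, at 7.39 and 7.45 TPM, was at least 175.2-fold and 178.4-fold above Cox6a2. Cox7b, at 14.3 and 8.17 TPM, was at least 249.5-fold and 148-fold above Cox7b2. Cox8a was at least 255.1-fold and 77-fold above Cox8b, and at least 451-fold and 124.7-fold above Cox8c. Cox7a2 had the least room, at least 27.3-fold and 41.4-fold above Cox7a1. These limits hold for reads as the authors assigned them.

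A single complex IV paralog pair was expressed on both sides. Cox6b2, a form known from testis, had 12.7 TPM in replicate 1 and 3.90 in replicate 2. Cox6b1 was higher than Cox6b2 in both libraries, by 1.62 ± 1.08 on the log2 scale of TPM ratios (SD, n = 2), which is 1.81-fold in replicate 1 and 5.21-fold in replicate 2. In complex V the 3 genes that encode the same mature c-ring subunit were all expressed. Atp5g3 stood at 8.66 and 5.21 TPM, Atp5g2 at 4.47 and 1.67, and Atp5g1 at 1.27 and 1.58. The log2 TPM ratio of Atp5g3 over Atp5g1 was 2.25 ± 0.74. The ratio of Atp5g2 over Atp5g1 was 0.95 ± 1.23, so Atp5g2 and Atp5g1 did not differ beyond the spread between the libraries, at 3.52-fold and 1.06-fold.

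Complex V held the most abundant member by far. Atpif1 (ENSMUSG00000054428, chr4:132530555-132533659, minus strand), which encodes the inhibitor that stops ATP synthase from running in reverse and is known for a role in heme synthesis, had a level of 464 TPM in replicate 1 and 335 in replicate 2, from 25552 and 18326 counts. Among nuclear protein-coding genes it ranked 28 in replicate 1 and 30 in replicate 2. Its mean was 400 ± 91.6 TPM (SD, n = 2), and its log2 ratio of TMM-scaled counts was -0.22. Atpif1 alone made up 0.374% and 0.447% of nuclear protein-coding TPM, while all 16 complex V subunits together made up 0.277% and 0.241%. Per length, Atpif1 was thus above the sum of the nuclear-encoded subunits in both libraries. By counts the order was the other way, with 0.0883% and 0.107% of nuclear protein-coding counts for Atpif1 against 0.123% and 0.129% for those 16 subunits, and the 2 subunits encoded by mitochondrial DNA are not in either sum.

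Among the subunits, the 5 genes of the catalytic F1 head had a median of 16.6 TPM and the 11 genes of the stalk and membrane sector 6.94. Atp5b, the catalytic beta subunit, stood at 137 and 47.03 TPM. Atp5h, a stator stalk subunit, stood at 55.2 and 32.03 TPM, and Atp5f1, the b subunit of the same stalk, at 26.6 and 19.0. Atp5b was the highest nuclear-encoded subunit of any complex in both libraries, but much of its TPM lay on a short noncoding transcript, as given with the transcript shares. The lowest members were Atp5s, a coupling factor-like protein, at 1.14 and 0.67 TPM, and Atp5l, subunit g of the membrane sector, at 0.06 and 0 TPM.

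The near absence of Atp5l from its own row went with reads at a near-identical copy. Atp5l (ENSMUSG00000038717, chr9:44912557-44920742, mm10) had 2.85 and 0 expected counts. Gm10221, annotated as a processed pseudogene at chr5:24581554-24581862, had 220 counts in replicate 1 and 415 in replicate 2, at 6.70 and 11.4 TPM. Its sequence matched the Atp5l coding sequence over 309 bases with 0 mismatches. The row of the copy held 98.7% and 100% of the summed counts of the pair, and the sum of the pair was 6.76 and 11.4 TPM, beside medians of 8.66 and 5.21 for the stalk and membrane subunits. The copy is shorter than Atp5l, whose length is 511 bases, so the same counts give a higher TPM in the row of the copy. Which of these loci was transcribed was not tested. The leading 120 bases of the coding match, from the GENCODE M21 transcripts, show that a read lying here cannot be told apart between the genes.
Atp5l: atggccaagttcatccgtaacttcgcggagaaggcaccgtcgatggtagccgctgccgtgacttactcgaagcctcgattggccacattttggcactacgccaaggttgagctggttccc
Gm10221: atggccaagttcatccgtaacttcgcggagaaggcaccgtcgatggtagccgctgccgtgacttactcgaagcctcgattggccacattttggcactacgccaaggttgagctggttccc

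Ndufb4, a membrane-arm subunit of complex I, showed the same split. It had 217 and 42 counts, at 3.05 and 0.36 TPM, while Ndufb4c, annotated as a processed pseudogene at chr15:73809507-73809896, had 532 and 232 counts, at 19.1 and 7.34 TPM. The coding sequences matched over 390 bases with 0 mismatches, and Ndufb4c held 71.0% and 84.6% of the summed counts. The pair summed to 22.2 and 7.70 TPM. The copy is shorter than Ndufb4, whose estimated length was 658 bases in replicate 1 and 971 in replicate 2. A shorter length gives a higher TPM for the same counts, so the sum is not comparable with the levels of other subunits. For Ndufa12 and its copy Gm15920 (chr5:130188395-130188796) the split differed between libraries. The copy had 269 counts in replicate 1 and 13.3 in replicate 2, which is 37.9% and 4.44% of the summed counts, and 2 mismatches over 402 aligned bases. The printed stretch, bases 49 to 198 of the Ndufa12 coding sequence, has 1 mismatch, in capitals, and within this stretch only a read over that base separates the genes.
Ndufa12: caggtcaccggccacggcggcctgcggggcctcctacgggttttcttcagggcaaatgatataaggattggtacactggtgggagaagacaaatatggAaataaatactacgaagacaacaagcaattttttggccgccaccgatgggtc
Gm15920: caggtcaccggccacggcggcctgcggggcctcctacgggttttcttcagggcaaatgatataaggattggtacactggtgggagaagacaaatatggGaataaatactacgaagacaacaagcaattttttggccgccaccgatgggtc

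In all, 20 members had at least 1 copy elsewhere in the genome at 95% identity or more over at least 80% of the coding sequence, with 38 copies among them. Of these copies, 33 had a row in the tables, 16 were at 0 counts in both libraries and 13 had at least 10 counts summed over the libraries. The copy Gm10250 took 11.8% and 4.05% of the counts it shared with Atp5h. Gm10175 took 0% and 18.5% with Atp5g2. Levels of members with such copies are uncertain to that extent. When each member was summed with its copies, an alternative chosen after seeing the data, 75 members were detected in place of 73; the added genes were Atp5l and Ndufb4.

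**Figure D2:**
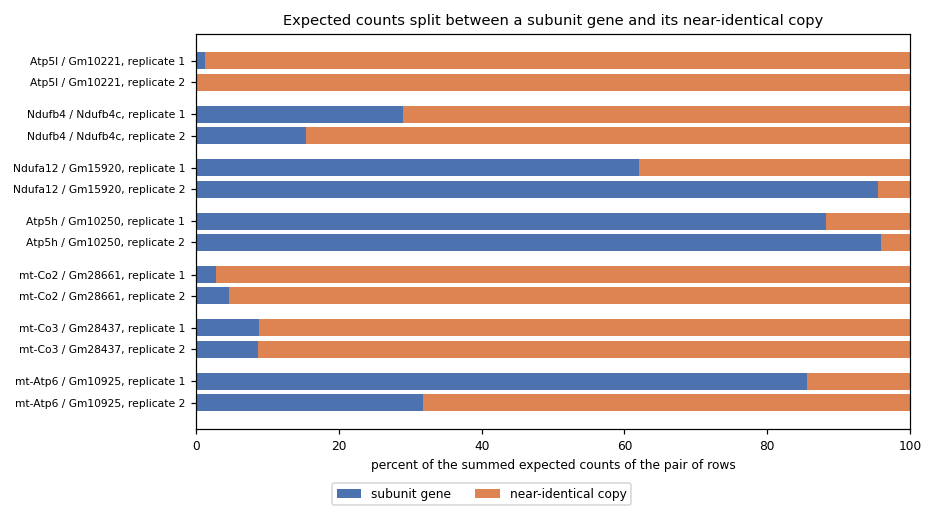
Share of the summed expected counts held by a subunit gene (blue) and by its near-identical copy (orange), in percent, with 1 bar per library for each pair. The copy held over 90% in both libraries for Atp5l, mt-Co2 and mt-Co3, and under 15% in both for Atp5h.

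Mitochondrial DNA encodes 13 further subunits, and their levels were far above those of their nuclear-encoded partners. In complex I, the median of 7 mitochondrial subunits was 1172 TPM in replicate 1 and 350 in replicate 2, against 5.75 and 3.52 for 36 nuclear subunits. The log2 ratio of those medians was 7.16 ± 0.73 (SD, n = 2). It was 7.70 ± 0.67 in complex III, 8.12 ± 0.02 in complex IV and 11.1 ± 1.42 in complex V. The complex V median rests on 2 mitochondrial genes, mt-Atp6 at 16376 and 1788 TPM and mt-Atp8 at 73492 and 14407. Yet mt-Atp8 had fewer counts than mt-Atp6 in both libraries, 284275 and 94645 against 1226784 and 134662. From counts per length the complex V ratio was 9.66. The part of message length in that ratio was not tested. Complex II has no mitochondrially encoded subunit. The smallest mitochondrial value was that of mt-Nd4l, at 56.6 and 4.66 TPM, and 12 nuclear complex I subunits were above it in replicate 2 and 0 in replicate 1. In the other 3 complexes no nuclear subunit was above the lowest mitochondrial subunit in either library.

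The mitochondrial side of these ratios also rested on rows with identical copies. Gm28661 (chr1:24614885-24615565), which matched mt-Co2 over 681 bases with 100% identity, held 97.2% and 95.4% of the summed counts of that pair. Gm28437 (chr1:24613189-24613971) held 91.3% and 91.3% of the pair with mt-Co3. Gm10222 held 98.7% and 99.3% of the pair with mt-Nd4l, and the sum of that pair was 4486 and 638 TPM. Gm10925 held 14.4% of the pair with mt-Atp6 in replicate 1 and 68.2% in replicate 2. With each subunit summed with its copies, the log2 ratio in complex IV went from 8.12 to 11.7 and that in complex I from 7.16 to 7.99. With sums in place of medians the ratios were 5.05 in complex I, 4.31 in III, 7.81 in IV and 7.26 in V. The direction held in each complex under each setting, and the size did not.

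**Figure D3:**
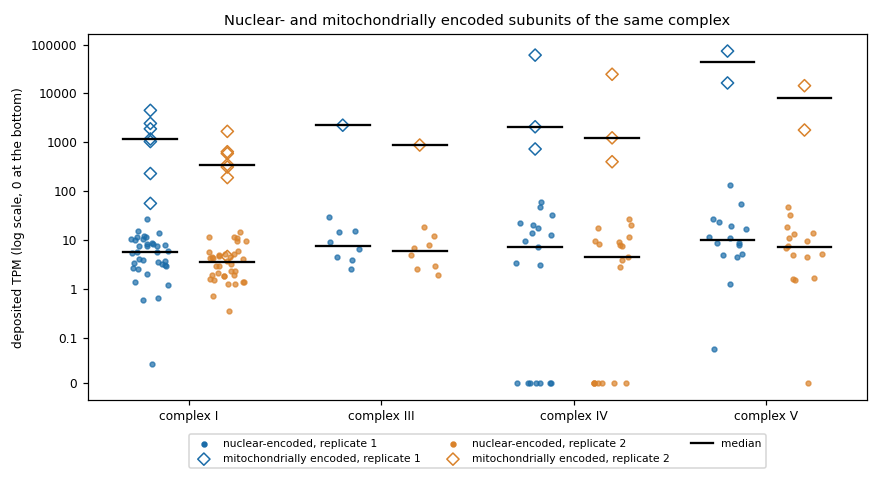
Deposited TPM of nuclear-encoded subunits (dots) and mitochondrially encoded subunits (diamonds) of complexes I, III, IV and V on a log axis, by library, with values of 0 at the bottom and black lines at the medians. Sideways spread of the dots has no meaning. Diamonds lie above all dots of their complex and library except for mt-Nd4l in replicate 2.

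A gene's level sums transcripts that differ in whether they encode the protein, and for several members the deposited split was uneven. Of 54 members with more than 1 transcript and a mean count reaching 100, 25 had over 90% of their TPM on protein-coding transcripts in both libraries, against 36.9% of 6216 nuclear protein-coding genes chosen the same way. The median share was 95.8% in replicate 1 and 94.95% in replicate 2. The share was below 50% for 10 members in replicate 1, 5 in replicate 2 and 2 in both, against 24.2%, 22.2% and 13.9% of those genes. The members under 50% in both were Atp5b and Ndufa5. For Ndufa5 the noncoding transcript Ndufa5-204 held 83.4% and 81.1% of TPM, which leaves 1.78 and 2.22 TPM on coding transcripts. For Atp5b the 478-base noncoding transcript Atp5b-206 held 49.95% and 26.2% of TPM, and the full-length coding transcript Atp5b-201, of 1916 bases, held 18.1% and 47.5%. Atp5b-201 stood at 24.7 and 22.3 TPM, beside 137 and 47.03 TPM for the gene. Its expected counts were 6832 and 5845, against 2853 and 550 for Atp5b-206. On TMM-scaled counts the log2 ratio of replicate 1 over replicate 2 was 0.03 for the gene, -0.47 for Atp5b-201 and 1.67 for Atp5b-206, so the gene was level while its transcripts were not.

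In 10 of the 54 members the transcript of highest mean share was not protein-coding, against 17.5% of nuclear protein-coding genes. Beside Atp5b and Ndufa5 they included Atp5f1, Ndufa3, Ndufa7, Ndufab1, Ndufs1, Ndufs7 and Sdhb. Several of these changed their leading transcript between libraries. Ndufa7-205, a noncoding transcript, held 100% of Ndufa7 in replicate 1 and 0% in replicate 2. Ndufs7-206 held 96.2% and 9.67% of Ndufs7, a core subunit, and no TPM of that gene was on coding transcripts in replicate 1. Ndufa3-204, annotated as a target of nonsense-mediated decay, held 93.4% and 28.9% of Ndufa3. Sdhb-202 held 91.0% and 30.8% of Sdhb. Atp5f1-203, also annotated for nonsense-mediated decay, went the other way, from 22.1% in replicate 1 to 76.1% in replicate 2. These are estimates from reads that overlapping transcripts share, and 18 of the 54 members had a different leading transcript in the libraries, against 41.6%.

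The major share differed by more than 15 points between libraries in 20 members and was under 60% in 13, with 24 of 54 in either class. The background over the same 6216 genes was 54.8%, 49.1% and 71.6%, so the members were below it in each case, with number of transcripts not matched. Those with a protein-coding major transcript included Atp5j2 (100% and 23.0%), Cox6b2 (100% and 24.3%), Atp5d (35.6% and 100%) and Ndufaf3 (6.80% and 83.3%). Ndufv1-205 held 92.7% and 30.9% of Ndufv1, and Cox7c-203 38.1% and 86.5% of Cox7c. Ndufb4, Ndufs3, Ndufb8, Cox7b, Sdhc, Ndufv2 and Ndufb2 also passed 15 points, and Atp5g3 and Uqcrc1 were under 60% without passing it. In contrast, 20 members had a major share of at least 90%, against 19.1% of nuclear protein-coding genes, among them Atpif1 (95.4% and 97.6%), Cox4i1 (97.4% and 96.0%), Cox6c (100% and 98.7%) and Uqcrb (100% and 100%). Counting coding transcripts alone, an alternative chosen after seeing the data, lowered the median level of the 94 members from 5.10 to 3.87 TPM. The number of detected members fell from 73 to 65 in that setting.

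**Figure D4:**
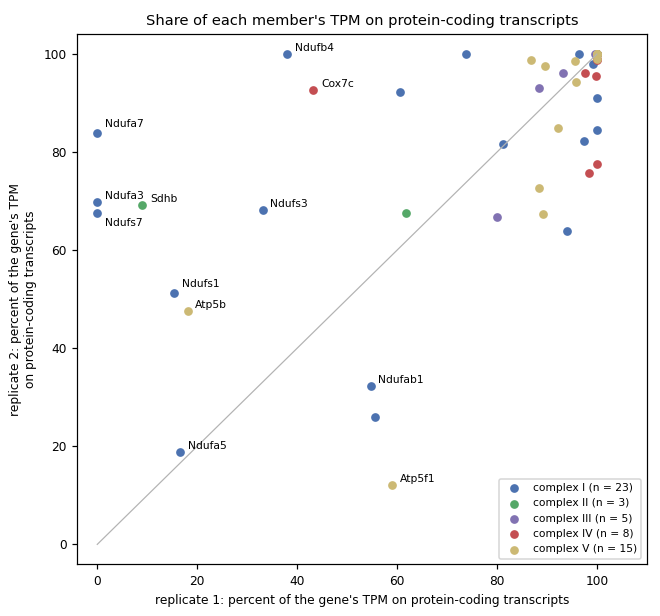
Percent of each member's TPM that lies on protein-coding transcripts, replicate 1 on the x axis and replicate 2 on the y axis, for 54 members coloured by complex. Most members under 60% in either library are named, and the line marks equal shares. Of the 54 points, 25 lie over 90% in both libraries, and Atp5b and Ndufa5 are under 50% in both.

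Differences between the replicates were examined in 83 members whose mean count reached 50. On TMM-scaled counts 7 were at least 2-fold higher in replicate 1, against 9.89% of 9480 nuclear protein-coding genes, and 8 were at least 2-fold higher in replicate 2, against 8.86%. The shares of members were therefore near the background in both directions. Their median log2 ratio was -0.16, with quartiles of -0.63 and 0.24, and 33 of 83 were above 0, against 52.4% of nuclear protein-coding genes. The median was -0.41 over 27 members shorter than 600 bases and -0.09 over 56 members of 600 bases or more. Mean fragment length was 224 bases in replicate 1 and 183 in replicate 2. The part of message length and fragment length in these differences was not tested. On deposited TPM 21 members were at least 2-fold higher in replicate 1, against a background of 30.8%, and 1 in replicate 2, against 4.63%. The median of the members became 0.60 on that scale, beside 0.66 for all nuclear protein-coding genes. Over 87 members with a count, Spearman's rho between the libraries' TPM was 0.888, and over 12268 nuclear protein-coding genes with a count it was 0.911; both are across genes, which are not independent replicates.

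Complex I, with 41 of the 83 members compared, held 10 of the 15 past 2-fold. Higher in replicate 1 were Ndufaf3 (log2 ratio 3.39), Ndufb4 (1.65), Ndufc2 (1.49), Ndufa9 (1.29) and Ndufaf7 (1.19). Ndufc2, a membrane-arm subunit, had 659 and 144 counts, and Ndufa9, which binds NADPH, 1474 and 371. Higher in replicate 2 were Ndufc1 (-3.73, from 21 and 176 counts), Ndufb6 (-1.81), Ndufb2 (-1.68), Ndufa6 (-1.20) and Ndufa7 (-1.09). In complex II, Sdhb (-1.26) and Sdhc (-1.07) were higher in replicate 2. In complex IV, Cox5b (1.73, from 4952 and 916 counts) and Cox8a (1.20, from 1719 and 462) were higher in replicate 1 and Cox7a2 (-1.07) in replicate 2. No member of complex III or V passed 2-fold. Of 39 members whose mean count reached 500, 3 passed, against 3.31% of 4837 nuclear protein-coding genes at that minimum. They were Ndufa9, Cox5b and Cox8a.

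Ndufs5, an accessory subunit, fell below the count minimum and had the widest disagreement of all, with 2 counts in replicate 1 and 95 in replicate 2. Its deposited credibility interval for TPM was 0.032 to 0.248 in replicate 1 and 1.85 to 3.03 in replicate 2, and these did not overlap. Relative to the level, Ndufs5 had the widest interval among members with a mean of at least 1 TPM, followed by Ndufaf3, Ndufc1, Ndufa3 and Ndufb4, all in complex I. The intervals of Ndufc1, 0.831 to 1.96 and 1.13 to 2.43 TPM, overlapped although its counts were 21 and 176, and its estimated length was 316 bases in replicate 1 and 1001 in replicate 2.

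**Figure D5:**
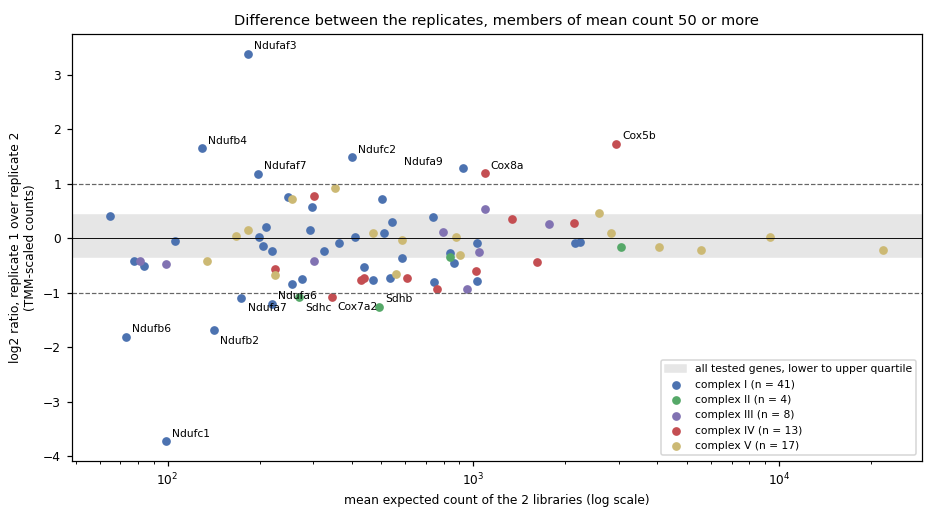
Log2 ratio of replicate 1 over replicate 2 in TMM-scaled counts (y axis) against the mean expected count on a log axis (x axis) for 83 members coloured by complex. The grey band spans the quartiles of 9480 nuclear protein-coding genes, dashed lines mark 2-fold, and members past 2-fold are named. Of the 15 named members, 3 have a mean count of 500 or more.

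Promoter sequence was the other property examined that the choice of members did not use. RefSeq windows on GRCm38.p6, from 250 bases before to 50 after a gene's start, were found for 77 members, 2 of them under another current symbol, with 82 windows. Both strands were searched for the motif of nuclear respiratory factor 1 (NRF1), a regulator known for respiratory chain genes, written as GCGCA, any base, then GCGC. It was in 21 of 82 member windows (25.6%), against 4.60% of 32851 windows and 6.38% of windows of protein-coding genes. The ETS-type motif CCGGAAG, the core bound by the factor GABP, was in 18 (21.95%), against 8.86% and 11.6%. The motif AAGATGGCG of YY1 was in 8 (9.76%), against 1.40% and 1.83%. The motif AGATAA of GATA factors was in 6 (7.32%), against 11.2% and 9.65%. Of the 77 members with a window, 34 had the NRF1 or ETS motif and 4 had both. The share of all windows with either or both was not computed, so these counts have no background. Members with the NRF1 motif in a window had a median level of 6.07 TPM and those without 4.73, with levels from 0.27 to 400 TPM among the former. No motif contains another, and a match describes letters in a window, not a binding site.

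The printed stretches lie upstream of the start by both RefSeq and GENCODE and show the NRF1 motif in capitals in a member of complexes I, II, IV and V. They are printed on the strand of the gene, which is the minus strand in each case, at chr4:123718220-123718339 for Ndufs5, chr13:74350282-74350401 for Sdha, chr5:115349056-115349175 for Cox6a1 and chr11:115419996-115420115 for Atp5h.
Ndufs5: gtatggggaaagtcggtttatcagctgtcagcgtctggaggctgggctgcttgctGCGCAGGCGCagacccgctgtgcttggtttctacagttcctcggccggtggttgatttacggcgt
Sdha: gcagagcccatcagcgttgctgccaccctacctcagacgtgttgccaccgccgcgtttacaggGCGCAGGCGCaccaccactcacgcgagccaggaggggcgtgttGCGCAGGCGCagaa
Cox6a1: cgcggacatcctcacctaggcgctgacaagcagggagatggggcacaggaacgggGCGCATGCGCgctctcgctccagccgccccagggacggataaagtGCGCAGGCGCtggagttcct
Atp5h: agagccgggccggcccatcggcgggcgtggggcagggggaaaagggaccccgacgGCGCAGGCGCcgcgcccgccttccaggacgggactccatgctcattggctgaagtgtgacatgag

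Sdha and Cox6a1 held 2 such motifs in the stretch and Ndufs5 and Atp5h 1. The levels beside them ranged from 55.2 and 32.03 TPM for Atp5h to 0.03 and 2.38 for Ndufs5, where the replicate 1 value rests on 2 counts. The motif was thus present in members of unlike level. A window of Atpif1 held the NRF1 motif as well, but its RefSeq start lies 1755 bases upstream of the GENCODE gene start, so which start these cells used was not tested.

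Genes around the chain, listed apart from the members, were lower. Of 41 assembly factors for complexes I to V outside the naming rule of the members, 40 were found by symbol and 11 were detected, with a median of 0.99 TPM. The highest were the copper chaperone Cox17, at 26.2 and 34.3 TPM, and Cox20, a chaperone of the subunit COX2, at 30.6 and 19.8. Of 15 genes for electron carriers, cytochrome c and ubiquinone synthesis, 4 were detected. Somatic cytochrome c, Cycs, stood at 3.82 and 1.68 TPM, and Coq9 at 6.29 and 2.49. Of 13 regulators of mitochondrial genes 8 were detected, led by Nrf1, at 23.2 and 11.2 TPM, and the transcriptional coregulator Hcfc1, at 16.5 and 11.4. Ppargc1a, the coactivator PGC-1 alpha, had 0 counts in both libraries.

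Reads from neighbouring genes bear on the levels of some members. Of the 94 members, 41 overlap another annotated gene, 12 of them on the same strand and 33 on the opposite strand. The share over all nuclear protein-coding genes was not computed. Cox4i1 shares its strand with Gm20388, a readthrough gene that had 134 and 335 counts against 1770 and 1464 for Cox4i1. Cox6c overlaps Vps13b on the opposite strand, which had 29342 and 16370 counts against 2833 and 1425 for Cox6c. Whether counting used the strand is not given in the sources used here, so levels of overlapping genes carry that uncertainty.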

How the data were processed

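For each of 2 CFU-E libraries the authors deposited tables by gene and by transcript on mm10, with GENCODE M4 named in the deposited notes. The sources used here give neither aligner nor quantifier. The columns, per the file headers, are expected counts (estimates that divide a shared read between genes), TPM, posterior mean TPM, bounds of a credibility interval for TPM, and each transcript's percent of its gene; the interval bounds are treated as deposited signal values, and effective length divides every TPM, which raises short messages. Symbols and coordinates came from GENCODE M21 through Ensembl identifiers without version: 42462 of 43346 rows matched, all 94 members among them.

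Expected counts were rounded for edgeR 4.0.16 (TMM) and DESeq2 1.42.0 (R 4.3.3), and log2 ratios used a prior count of 0.5. Copies were found with BLAST 2.17.0 on coding sequences. The calculation of the TMM-scaled log2 ratio was tested on simulated counts. With 1 group there was no test. Named were the 4 highest and 2 lowest members of each complex, paralog pairs, members at 0 counts, past 2-fold, with the 5 widest intervals or uneven transcript shares, complex II, Atpif1 and Ndufaf genes; an item under this rule is not reported here, and other named genes were chosen after their values were seen. Members and lists were chosen with earlier results of these data known.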

Additional observations from a re-analysis of the deposited data

How the results depend on the processing

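With 2 libraries of 1 group, SD values rest on n = 2. The detected count of 73 fell to 37 at 5 TPM, and leaving out either library gave 76. The median level of 5.10 TPM became 50.6 with TPM rescaled over nuclear protein-coding genes, 6.63 over detected members and 3.87 over coding transcripts only (chosen after seeing the data), and 4.27 to 5.55 without 1 library. Members past 2-fold between replicates numbered 15, 3 where the mean count reached 500 and 26 of 80 on coding transcripts only, where 23.2% of nuclear protein-coding genes passed. The median log2 ratio between replicates turned from -0.16 to 0.60 on deposited TPM, where the whole scale is shifted. The log2 ratio of mitochondrial over nuclear subunits, as sums, was 5.05 in complex I, 4.31 in III, 7.81 in IV and 7.26 in V; summed with copies (chosen after seeing the data) it was 7.99 in I and 11.7 in IV; from counts per length it was 8.25 in IV and 9.66 in V; with posterior mean TPM it was 9.80 in IV. Left-out libraries gave 6.64 to 7.67 in I, 7.22 to 8.17 in III, 8.11 to 8.14 in IV and 10.1 to 12.1 in V. Members with a major share under 60% numbered 13, 5 where the mean count reached 1000, and 11 without either library. The cause of these changes was not tested, apart from fewer genes under stricter minimums. All 10 paralog pairs kept the same gene higher in every setting run. For pairs that include 1 of the 7 genes at 0 counts, no setting could reverse the order. The other 46 alternatives of main results stayed within the replicate spread, 0.1 for the median log2 ratio, or 1.5 times the count. For ratios averaged over the 2 libraries, leaving out 1 cannot move the value past the SD, so those settings do not bear on stability. No paired analysis was possible because there is 1 group.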
